A study of Danio rerio with 8 samples.

Results

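The genes described here make, store, take up and break down the monoamine transmitters dopamine, noradrenaline and serotonin. They were the 10 zebrafish genes with the symbols *th*, *th2*, *ddc*, *dbh*, *tph1a*, *tph2*, *slc18a2*, *slc6a3*, *slc6a4a* and *mao*, chosen by name among the 32057 genes of the count table. All 10 were found in the table and all 10 passed the filter on low counts, with 23567 of all genes. RNA-seq was performed on 8 clutches of whole zebrafish at 2 days post-fertilisation (dpf), each pooled from the offspring of a different pair of parents. Both alleles of *fmr1*, the zebrafish orthologue of the fragile X gene, carried the hu2787 non-sense mutation in the 4 mutant clutches, named S2, S4, S5 and S8. The 4 wild type clutches, named A, D, G and L, were *fmr1*+/+. The parents of both groups descended from a single imported stock, in which some fish also carried the *mitfa* w2 pigment allele. The paper reports this allele in some clutches as well, although no parent of the sequenced clutches was homozygous for it. It states that the allele had no great effect on its transcriptome results. The labels do not say which clutches carried it. The labels name no treatment of either group, and polyA+ RNA was sequenced. Because whole embryos were used, fewer monoaminergic cells and less RNA per cell cannot be told apart in any value below.

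Dopamine and noradrenaline are made from tyrosine. Tyrosine hydroxylase makes L-DOPA, which aromatic amino acid decarboxylase (*ddc*) turns into dopamine, and dopamine beta-hydroxylase (*dbh*) turns dopamine into noradrenaline. Serotonin is made from tryptophan by tryptophan hydroxylase and the same decarboxylase. The transmitters are loaded into vesicles by the vesicular monoamine transporter (*slc18a2*), cleared from the synapse by a transporter for dopamine (*slc6a3*) or serotonin (*slc6a4a*), and broken down by monoamine oxidase (*mao*). In the zebrafish embryo several of these genes mark small groups of cells, among them the diencephalic dopaminergic neurons, the locus coeruleus, sympathetic neurons and the raphe.

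Each library held between 29296538 and 33205738 counted reads, of which between 1202 and 2031 fell on the 10 genes together. Levels are given as CPM, counts scaled to the size of each library with TMM normalisation, and means have the SD over 4 clutches. The targeted gene followed the labels: *fmr1* spanned 19.4 to 23.4 CPM in mutant and 47.1 to 54.2 CPM in wild type clutches, with an FDR of 0.00551 by edgeR. Along the first principal component of all genes, wild type clutches A and D stood apart from the other 6. Their summed pineal and photoreceptor markers were 92.6 and 95.1 CPM, against 192 in G, 215 in L and 137 to 268 in the mutant clutches. Most of each sum was *crx*, at 80.6 and 84.5 CPM in A and D. In *gnat1*, *gnat2* and *rcvrna*, mutant clutch S5 was low along with A and D. The level of *rcvrna* was 5.07, 3.08 and 4.45 CPM in A, D and S5 and 8.17 to 21.6 CPM in the other clutches. That of *gnat1* was 2.09, 1.90 and 2.58 CPM against 4.92 to 11.9 CPM. In the same list, *aanat2* was lowest in S4, at 2.79 CPM. Mutant clutch S5 had the highest summed erythrocyte markers, at 6568 CPM, where the other 7 clutches lay between 1710 and 3512 CPM. The pan-neuronal markers summed to 2932 to 3012 CPM in mutant and 2779 to 3338 CPM in wild type clutches, so that the genotypes overlapped. No matched gene of any list was at 0 in all 8 libraries, and markers of neurons, muscle, blood and epidermis were all measured, as a whole embryo would hold.

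**Figure D1:**
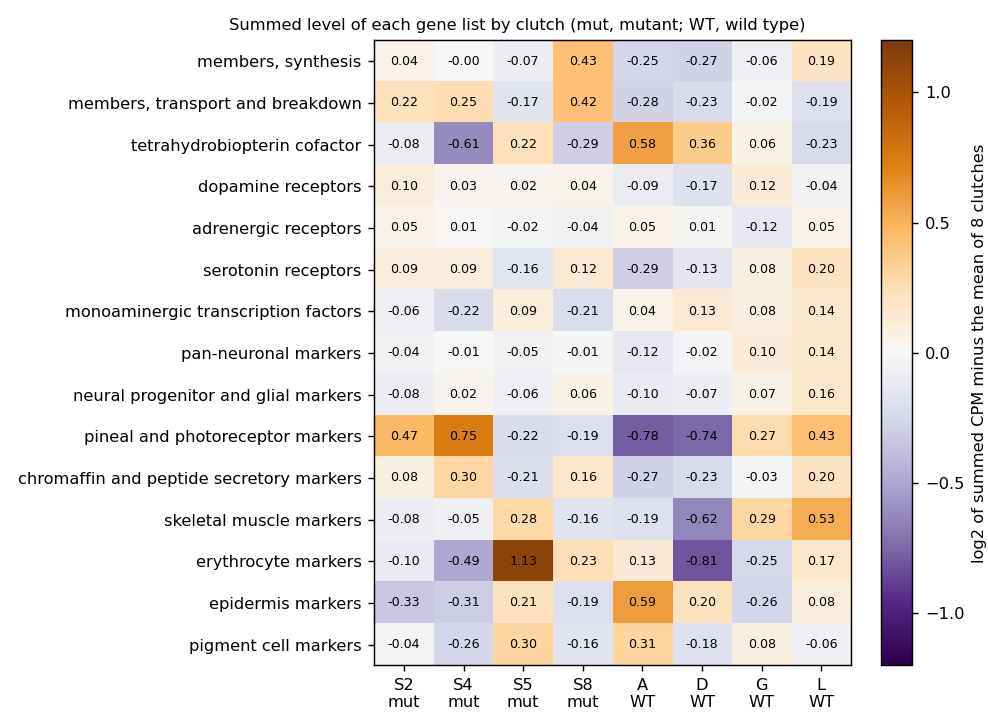
Summed CPM of each gene list in each clutch, as the log2 difference from the mean of the 8 clutches (colour and printed number). Wild type clutches A and D are lowest in the summed pineal and photoreceptor markers, most of which is *crx*. Mutant clutch S5 is high in erythrocyte markers.

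No monoamine gene was differentially expressed (DE) between the genotypes when the false discovery rate (FDR) was held at 0.05 over all genes tested. The gene with the lowest *p*-value was *slc6a4a*, the serotonin transporter, with a 1.48-fold higher mean level in the mutant clutches. Its level was close to 14.5 CPM in 3 mutant clutches but was below every wild type clutch in the fourth, S5. The next in order were *mao*, at 1.21-fold, and *ddc*, at 1.36-fold. The genes for tyrosine hydroxylase, tryptophan hydroxylase and dopamine beta-hydroxylase differed by less than the spread between clutches.

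Of the 10 genes, 0 passed an FDR of 0.05 with edgeR's quasi-likelihood test, beside 0.0127% of all genes tested. The likelihood-ratio test of edgeR, DESeq2 and limma-voom also called 0 of the 10, and they called 0.132%, 0.186% and 0.00849% of the genes they gave an FDR, which for DESeq2 left out *th2*. At an unadjusted *p*-value of 0.05, 1 of the 10 was higher in the mutant clutches and 0 were lower, where 4.22% of all genes tested were higher and 5.19% were lower. The 4 mutant and 4 wild type values overlapped for all 10 genes, and they were separated in 4.28% of all genes tested. The fitted log2 fold change was above 0 for all 10 genes, with a median of 0.24. Among all genes tested 53.1% were above 0, with a median of 0.02, and among the 12407 genes with a mean of 1 to 25 CPM the share was 57.8%, with a median of 0.05. All 9 chromaffin and peptide secretory markers (median 0.17) and all 6 pineal and photoreceptor markers (median 0.50) were also above 0. Of 18 pan-neuronal markers, 12 were above 0 and 6 below, and of 8 cofactor genes 1 was above and 7 below. A shared sign was therefore not particular to the 10 genes.

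The counts for the 10 genes depended on which clutches were included. Without mutant clutch S5, 3 of the 10 genes (*slc6a4a*, *mao* and *ddc*) were higher at an unadjusted *p*-value of 0.05, beside 8.07% of all genes tested, and 0 passed an FDR of 0.05. The same 3 genes were then separated between genotypes, beside 7.17% of all genes tested that were separated with the mutant higher. Without wild type clutches A and D, 0 of the 10 were higher at that *p*-value, beside 3.82% of all genes tested, and the log2 fold changes of *th2*, *dbh* and *tph2* were below 0. The photoreceptor genes *gnat1*, *gnat2* and *rcvrna* were low in A, D and S5 alike, and the part of such markers was not tested. Mutant clutch S8 held the highest mutant value for 9 of the 10 genes, all but *slc18a2*, and S5 held the lowest for 6. The shares of all genes tested with S8 highest or S5 lowest were not computed. These counts therefore cannot be read as a trait of the 10 genes.

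**Figure D2:**
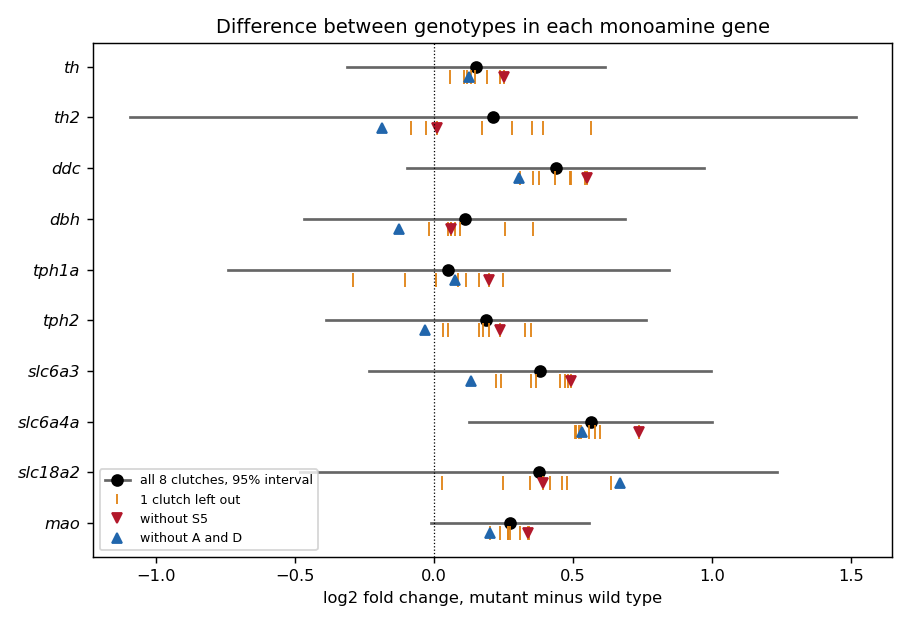
Log2 fold change (mutant minus wild type) of each gene with its 95% interval from the fit to all 8 clutches (black, grey), and the values with 1 clutch left out (orange ticks), without S5 (red) and without A and D (blue). The interval lies wholly above 0 for *slc6a4a* alone, and 4 genes cross 0 when clutches are left out.

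The first step of catecholamine synthesis is carried out by tyrosine hydroxylase, which in zebrafish is encoded by *th* and *th2*. The gene *th* (ENSDARG00000030621; GRCz11 Chromosome 25, 24055341 to 24074500, reverse strand) is expressed in dopaminergic and noradrenergic cells. Its level was 3.73, 4.03, 2.83 and 4.05 CPM in mutants S2, S4, S5 and S8, and 3.89, 2.56, 3.19 and 3.59 CPM in wild types A, D, G and L. The groups overlapped almost entirely, and their means of 3.66 ± 0.57 and 3.31 ± 0.57 CPM (SD, n = 4 each) differed by less than 1 SD. The log2 fold change was 0.15 ± 0.21 (SE), with an FDR of 0.832 by edgeR. The 95% interval of the fold change ran from 0.805 to 1.53.

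The paralogue *th2* (ENSDARG00000038384; Chromosome 4, 17380578 to 17391091, reverse strand) is known in zebrafish from the hypothalamus, and its product has also been found to act on tryptophan. It was the lowest of the 10 genes, with 2, 8, 11 and 14 reads in S2, S4, S5 and S8 and 7, 4, 10 and 9 in A, D, G and L. These counts correspond to means of 0.289 ± 0.178 and 0.248 ± 0.101 CPM (SD, n = 4 each). Counting error alone gives a coefficient of variation of 33.8% and 36.5% at these depths, where 61.7% and 40.8% were measured. A difference between the genotypes was not detectable at this depth, with an interval of the fold change from 0.468 to 2.87.

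Serotonin synthesis begins with tryptophan hydroxylase, and *tph2* (ENSDARG00000057239; Chromosome 18, 16989764 to 17001056, reverse strand) marks the serotonergic neurons of the raphe. Its level was 3.99, 2.67, 3.35 and 5.05 CPM in mutants S2, S4, S5 and S8. In wild types A, D, G and L it was 2.31, 3.17, 3.37 and 4.38 CPM. The lowest of the 8 values was in A and the highest in S8, and the groups overlapped. The fitted log2 fold change was 0.19 ± 0.26 (SE), with an FDR of 0.830 by edgeR, and it was -0.03 without A and D.

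The second tryptophan hydroxylase gene examined, *tph1a* (ENSDARG00000029432; Chromosome 25, 8139220 to 8160030, reverse strand), had 22 to 63 reads per library. Its level was 1.06, 0.940, 0.810 and 2.03 CPM in S2, S4, S5 and S8, and 0.771, 1.58, 1.25 and 1.06 CPM in A, D, G and L. Only S8 lay above the wild type range among the mutant clutches. The log2 fold change was 0.05 ± 0.36 (SE), and it became -0.29 when S8 was left out and -0.10 when A was left out.

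The decarboxylase *ddc* (ENSDARG00000016494; Chromosome 16, 8298542 to 8342749, reverse strand) is shared by the dopamine and serotonin pathways. Its level was 4.08, 3.24, 2.72 and 4.34 CPM in S2, S4, S5 and S8 and 2.92, 1.84, 3.22 and 2.64 CPM in A, D, G and L. All 4 mutant clutches lay above the wild type mean of 2.66 ± 0.59 CPM (SD, n = 4), but S5 lay below A and G. Its fitted log2 fold change was 0.44 ± 0.24 (SE), with an FDR of 0.567 by edgeR, and the two-sided exact permutation test gave *p* = 0.114. Its *p*-value in the fit was 0.0977 with all clutches and 0.0462 without S5.

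The noradrenergic enzyme gene *dbh* (ENSDARG00000069446; Chromosome 10, 10564261 to 10607118, reverse strand) was measured at 2.73, 4.03, 4.31 and 4.50 CPM in S2, S4, S5 and S8. In A, D, G and L it was at 2.60, 3.28, 3.22 and 5.32 CPM. The highest and the lowest of the 8 values were both in wild type clutches (L and A). The log2 fold change was 0.11 ± 0.26 (SE), with an FDR of 0.908 by edgeR, and it was -0.02 without A and -0.12 without A and D. The gene overlaps *sardh* on the opposite strand, and the counting kept the strands apart.

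Vesicular loading of all the monoamines depends on *slc18a2* (ENSDARG00000015110; Chromosome 17, 23782324 to 23811332), the only one of the 10 genes on the forward strand. It had 17 to 67 reads per library. Its level was 1.92, 0.516, 1.14 and 1.13 CPM in S2, S4, S5 and S8 and 1.09, 1.04, 0.844 and 0.642 CPM in A, D, G and L. Both the highest and the lowest values were in mutant clutches, S2 and S4, with a coefficient of variation of 49.1% among mutant clutches against 16.3% from counting error. Its log2 fold change was 0.38 ± 0.39 (SE), with an FDR of 0.763 by edgeR, and it ranged from 0.03 to 0.64 when single clutches were left out.

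The dopamine transporter gene *slc6a3* (ENSDARG00000004219; Chromosome 16, 248239 to 263658, reverse strand) is a marker of dopaminergic neurons. Its level was 1.89, 2.27, 1.66 and 2.96 CPM in S2, S4, S5 and S8. It was 1.57, 1.15, 2.00 and 2.04 CPM in A, D, G and L. S4 and S8 lay above all wild type clutches, and S2 and S5 lay within the wild type range. The log2 fold change was 0.38 ± 0.28 (SE), with an FDR of 0.657 by edgeR. It was 0.13 without A and D, which held the lowest values.

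The serotonin transporter gene *slc6a4a* (ENSDARG00000061165; Chromosome 15, 28609025 to 28618502, reverse strand) clears serotonin from the synapse and is expressed in the raphe. It had 503, 479, 213 and 452 reads in S2, S4, S5 and S8 and 252, 304, 298 and 228 reads in A, D, G and L. In the same order, the normalised levels were 14.4, 14.5, 7.84 and 14.5 CPM among mutants and 8.09, 8.75, 9.31 and 8.61 CPM among wild types. The 3 mutant clutches S2, S4 and S8 were nearly equal and lay above every wild type clutch, with a mean 1.67 times the wild type mean. They lay closer together than counting error gives, with a mean of 14.5 CPM and an SD of 0.0493 CPM. At the mean count of all mutant clutches, S5 included, counting error gives a coefficient of variation of 4.93%. The near tie of S2, S4 and S8 is therefore no measure of the spread between clutches. S5 lay below every wild type clutch, at 90.2% of their mean.

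The wild type clutches varied little in *slc6a4a*, with a coefficient of variation of 5.76%, near the 6.08% that counting error gives. On the log2 scale the fold change over all clutches was 0.56 ± 0.20 (SE), with a *p*-value of 0.0162 and an FDR of 0.528 by edgeR. The two-sided exact permutation test gave *p* = 0.143. Leaving out S5 gave a log2 fold change of 0.74 with an FDR of 0.0744, and leaving out A and D gave 0.53 with an FDR of 0.770. Over all the alternatives the FDR of *slc6a4a* lay between 0.0744 and 0.835. A lower FDR without S5 was not particular to this gene. Among the genes described below it was 0.0835 for *drd4a* and 0.0904 for *comta*, both higher in the mutant clutches. It was 0.0765 for *ascl1a* and 0.0767 for *insm1a*, both lower. The pattern of S5 under all wild type clutches and the other 3 mutant clutches over them was shown by 403 genes, 1.71% of those tested. S5 was the clutch with the high erythrocyte markers, and it was also low in *gnat1*, *gnat2* and *rcvrna*. The part of either in this result was not tested. Per 10000 CPM of pan-neuronal markers, *slc6a4a* was at 26.7 in S5, at 48.2 to 49.1 in the other mutants and at 25.8 to 29.4 in wild types. The gene overlaps si:ch211-225b7.6 on the opposite strand.

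Monoamine oxidase, which breaks down all these transmitters, is encoded by a single zebrafish gene, *mao* (ENSDARG00000023712; Chromosome 9, 33660964 to 33725972, reverse strand). It had the highest CPM of the 10 genes. Its level was 20.8, 22.4, 19.2 and 26.3 CPM in S2, S4, S5 and S8 and 16.9, 17.6, 20.8 and 18.1 CPM in A, D, G and L. All 4 mutant clutches lay above the wild type mean of 18.3 ± 1.7 CPM (SD, n = 4), while wild type G lay above S5 and level with S2. The log2 fold change was 0.27 ± 0.13 (SE), with a *p*-value of 0.0571 and an FDR of 0.533 by edgeR. The interval of the fold change ran from 0.993 to 1.47, and the two-sided exact permutation test gave *p* = 0.0571.

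**Figure D3:**
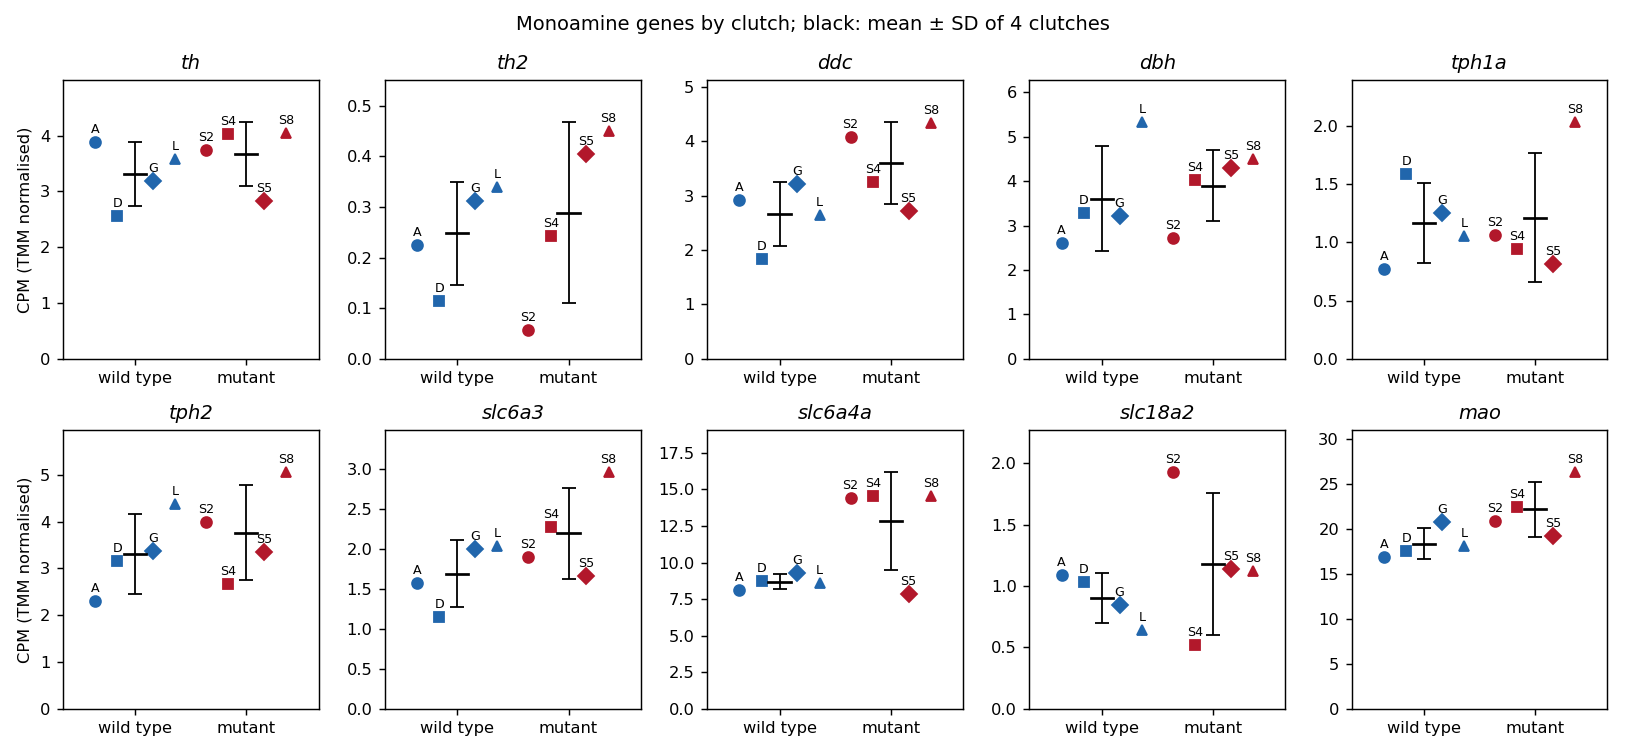
TMM-normalised CPM of each gene in the 4 wild type (blue) and 4 mutant (red) clutches, with the mean and SD in black, on axes from 0. The groups overlap in every panel, and in *slc6a4a* mutant clutch S5 lies at 7.84 CPM below the other 3 mutant clutches.

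The paralogues and further enzymes and transporters of the pathways were examined next. Of 12 such genes 11 passed the count filter. Of these, 1 was higher in the mutant clutches at an unadjusted *p*-value of 0.05 (*slc6a4b*), 0 were lower and 0 passed an FDR of 0.05, where 4.22% of all genes tested were higher and 5.19% lower. Their median log2 fold change was 0.03, beside 0.02 over all genes tested. The gene *pnmt*, for the enzyme that makes adrenaline, had 1 read in S4 and 0 in the other 7 libraries and was not tested.

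The second serotonin transporter gene, *slc6a4b*, had 6, 7, 4 and 5 reads in S2, S4, S5 and S8 and 0, 3, 0 and 2 reads in A, D, G and L. The genotypes were separated, S5 included, but the wild type clutches were all at or under 3 reads. The pooled 22 mutant and 5 wild type reads gave a ratio of 4.34, with an exact 95% interval of 1.60 to 14.7 that covers counting error only. The FDR by edgeR was 0.528, and the unadjusted *p*-value was 0.0247 with all clutches and 0.0519 to 0.0538 without S4, A or G. For *comta*, a catechol-O-methyltransferase gene, the level was 7.47, 8.95, 4.27 and 10.7 CPM in S2, S4, S5 and S8 and 4.27, 5.50, 5.06 and 6.27 CPM in A, D, G and L. S5 was again level with the lowest wild type clutch, and the log2 fold change was 0.58 ± 0.26 (SE) with an FDR of 0.530 by edgeR. Its paralogue *comtb* had a log2 fold change of 0.03 and lay between 8.87 and 12.3 CPM in all 8 clutches.

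The noradrenaline transporter gene *slc6a2* had a log2 fold change of 0.15 ± 0.23 (SE), with S5 the lowest of the 8 clutches at 2.61 CPM. The third tryptophan hydroxylase gene, *tph1b*, had a log2 fold change of -0.47 ± 0.31 (SE), with 1.93 ± 0.74 CPM in mutant and 2.66 ± 0.69 CPM in wild type clutches (SD, n = 4 each). The phenylalanine hydroxylase gene *pah* had a log2 fold change of -0.10, and *hdc*, for histidine decarboxylase, which makes histamine, one of -0.18. The vesicular acetylcholine transporter genes *slc18a3a* and *slc18a3b* had log2 fold changes of 0.15 and -0.12. The related transporter gene *slc18b1* had a log2 fold change of 0.50, and *slc18a1*, the second vesicular monoamine transporter gene, one of -0.52 on 0 to 7 reads per library. None of these had an unadjusted *p*-value under 0.05.

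Tyrosine and tryptophan hydroxylases need the cofactor tetrahydrobiopterin, which pigment cells also make as a precursor. Of 8 cofactor genes measured, 0 had an unadjusted *p*-value under 0.05, and their median log2 fold change was -0.23. The summed levels were 629, 540, 438 and 360 CPM in A, D, G and L and 276 to 490 CPM in the mutant clutches, so that G and L lay within the mutant range. Most of the sum in A and D was *gch2*, at 464 and 388 CPM, a gene that is also in the list of pigment cell markers and was named after its values were seen. The summed pigment cell markers lay between 1232 and 1816 CPM in mutant and 1304 and 1824 CPM in wild type clutches, and their part was not tested.

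Among the dopamine receptor genes, 2 of 10 were higher at an unadjusted *p*-value of 0.05 and 0 were lower, with 0 past an FDR of 0.05, where 4.22% of all genes tested were higher and 5.19% lower. Their median log2 fold change was 0.29, beside 0.02 over all genes tested. The gene *drd4a* was at 1.55, 2.73, 0.515 and 1.32 CPM in S2, S4, S5 and S8 and at 0.739, 0.489, 0.625 and 0.793 CPM in A, D, G and L. As for *slc6a4a*, S2, S4 and S8 lay above all wild type clutches and S5 did not, and the FDR by edgeR was 0.528. The unadjusted *p*-value of *drd4a* was 0.0200 with all clutches, 0.098 without A and D, 0.0526 without D and 0.0871 without S4, where the log2 fold change was 0.79. Without S5 it was 0.00164, where 8.07% of all genes tested were higher at an unadjusted *p*-value of 0.05. The gene overlaps si:ch73-365i12.4 on the opposite strand, and in mice the D4 receptor is known from photoreceptors, whose summed markers were highest in S4. The part of those cells was not tested. The gene *drd2b*, for a D2 receptor, was at 1.58, 1.64, 1.1 and 1.32 CPM in S2, S4, S5 and S8 and at 1.12, 1.04, 0.812 and 0.642 CPM in A, D, G and L. Only S5 lay within the wild type range, and the FDR by edgeR was 0.529. The unadjusted *p*-value of *drd2b* was 0.0447 with all clutches and 0.0504 to 0.113 without S2, S4, S8, D, G or L. It was 0.0275 without S5 and 0.0257 without A and D, with a log2 fold change of 0.96 in the latter. Of 14 adrenergic receptor genes, 0 reached an unadjusted *p*-value of 0.05, and their median log2 fold change was 0.03. Of 18 serotonin receptor genes, 0 reached it, and 9 had a log2 fold change above 0 and 9 below.

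Transcription factors of monoaminergic neurons gave 3 of 25 genes lower in the mutant clutches at an unadjusted *p*-value of 0.05 and 0 higher, with 0 past an FDR of 0.05, where 5.19% of all genes tested were lower and 4.22% higher. Their median log2 fold change was -0.11, beside 0.02 over all genes tested. The proneural gene *ascl1a* was at 15, 13.1, 22.3 and 10.9 CPM in S2, S4, S5 and S8 and at 25.3, 25.7, 20.4 and 20.7 CPM in A, D, G and L. The zinc finger gene *insm1a*, expressed in newly formed neurons and endocrine cells, was at 74.8, 65, 115 and 57.6 CPM in S2, S4, S5 and S8 and at 143, 143, 96.6 and 106 CPM in A, D, G and L. In both genes S5 lay within the wild type range while the other 3 mutant clutches lay below it. The gene *phox2bb*, needed for noradrenergic and autonomic neurons, was at 24.1, 18.8, 28.1 and 27.1 CPM in S2, S4, S5 and S8 and at 33.5, 32, 29 and 29.1 CPM in A, D, G and L. These groups did not overlap, and the log2 fold change was -0.33 ± 0.14 (SE), with an FDR of 0.528 by edgeR. The gene *phox2bb* lies on Chromosome 14 (17064126 to 17072736), which also holds *fmr1* (20156477 to 20191281), whereas 0 of the 10 monoamine genes lie there. For the genes it found DE on this chromosome, the paper could not exclude differences in expression between alleles. Linked alleles and the mutation cannot be told apart here. Without A and D none of the 3 kept an unadjusted *p*-value under 0.05: it was 0.166 for *insm1a*, 0.135 for *ascl1a* and 0.188 for *phox2bb*, with log2 fold changes of -0.37, -0.42 and -0.23. The unadjusted *p*-value of *phox2bb* was 0.103 with scaling to pan-neuronal markers and 0.0585 to 0.0837 without S2, S4, A or D. Without S5 the unadjusted *p*-value was 0.000532 for *insm1a*, 0.00041 for *ascl1a* and 0.016 for *phox2bb*. The share of all genes tested that were lower without S5 was not computed. Of 8 neural progenitor and glial markers, 3 had a log2 fold change above 0 and 5 below, with a median of -0.03 and 2 lower at an unadjusted *p*-value of 0.05. For *sox2* the genotypes did not overlap, at 65.5 to 83.0 CPM in mutant and 87.5 to 91.8 CPM in wild type clutches. Values of these 2 genes without A and D are not given here. The summed levels of the 8 markers overlapped, at 1226 to 1350 CPM in mutant and 1213 to 1452 CPM in wild type clutches. In that sum *her4.1* counts for little, and the part of these cells was not tested.

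Ratios between genes of the same library do not depend on its scaling, and 6 were compared. The ratio of *slc6a4a* to *tph2* leaves out the tryptophan hydroxylase genes *tph1a* and *tph1b*, so it does not cover all of serotonin synthesis. It was 3.62, 5.44, 2.34 and 2.88 in S2, S4, S5 and S8 and 3.50, 2.76, 2.76 and 1.97 in A, D, G and L. The ratio of *slc6a3* to *th* was 0.508, 0.564, 0.584 and 0.730 among mutants and 0.405, 0.449, 0.627 and 0.568 among wild types, in the same order. The ratio of *dbh* to *th*, which leaves out *th2*, spanned 0.731 to 1.52 in mutant and 0.669 to 1.48 in wild type clutches. All 6 ratios overlapped between genotypes. The exact permutation tests, two-sided, gave *p*-values from 0.257 to 0.971, all 0.971 after Benjamini-Hochberg adjustment over the 6.

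Relative to the summed pan-neuronal markers, *mao* was separated between the genotypes. It was at 70.7, 74.5, 65.4 and 87.6 per 10000 CPM of markers in S2, S4, S5 and S8 and at 60.8, 58.9, 64.0 and 54.2 in A, D, G and L. The lowest mutant value, in S5, lay just above the highest wild type value, in G. The log2 difference was 0.32, and the two-sided exact permutation test gave *p* = 0.029, the smallest that 4 against 4 clutches allow, without adjustment over the 10 genes. Leaving out S8, A, D, G or L in turn gave *p* = 0.0571 in an exact test of the remaining 7 clutches, with log2 differences from 0.24 to 0.36. The other 9 genes gave *p*-values between 0.114 and 1.0 on this scale. The share of all genes tested that were separated on this scale was not computed. The separation of *mao* therefore has no background to be read against.

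Per length of the gene model, *mao* and *slc6a4a* were the most abundant, at 4.58 ± 0.69 and 4.29 ± 1.25 CPM per kilobase (SD, n = 8). They did not differ beyond their spread: *mao* was higher in 6 of 8 clutches, and *slc6a4a* had the higher mean among mutant clutches and *mao* among wild type clutches. The gene *th* followed at 2.37 ± 0.38 CPM per kilobase and lay below *slc6a4a* and above *dbh* in 8 of 8 clutches. Next were *dbh* at 1.64 ± 0.42 and *tph2* at 1.59 ± 0.40, whose order held in 5 of 8 clutches. The dopamine transporter gene *slc6a3*, at 1.03 ± 0.28, lay above *ddc*, at 0.719 ± 0.184, in 8 of 8 clutches. The genes *tph1a* and *slc18a2* were level at 0.601 ± 0.216 and 0.590 ± 0.242, and *th2* was lowest at 0.164 ± 0.083 CPM per kilobase. The models of *th*, *th2*, *dbh*, *tph1a* and *slc6a3* have lengths that are multiples of 3, as do 38.0% of all genes. Such a length alone does not show that a model lacks UTRs. The models may differ in the UTRs they hold, which limits a comparison of levels per kilobase between these genes.

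**Figure D4:**
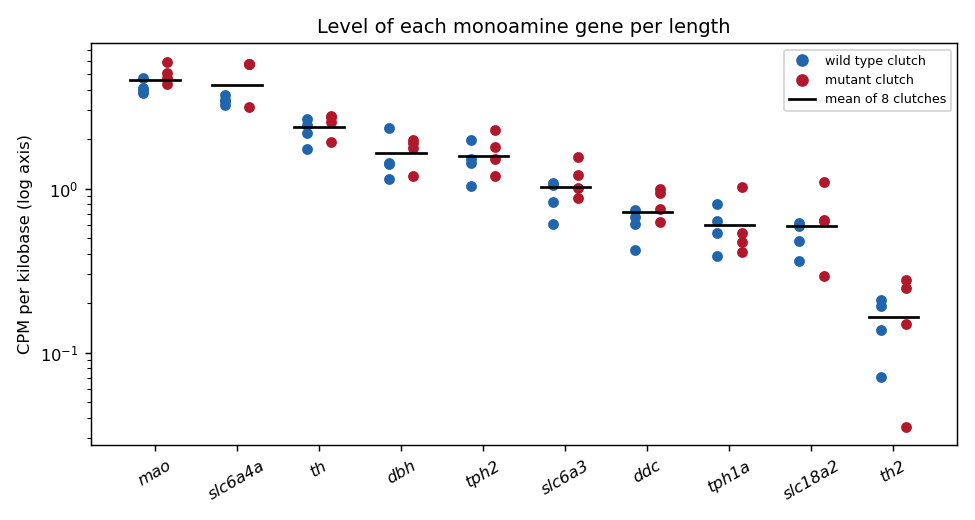
CPM per kilobase of each gene (log axis) in the wild type (blue) and mutant (red) clutches, with the mean of 8 clutches as a bar, ordered by that mean. Levels range from 4.58 for *mao* to 0.164 for *th2*.

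Co-variation between clutches of the same genotype was described by Pearson's r of log2 CPM after removal of the genotype means, over 8 clutches that share a library for all genes. Of the 45 pairs 34 had an r above 0, and the median was 0.23. Pairs of other genes were not examined in this way, so whether these values are high is not known. An r above 0.7 was found for 5 pairs: *slc6a3* and *mao* (0.80), *ddc* and *slc6a3* (0.77), *th* and *ddc* (0.76), *tph1a* and *mao* (0.73), and *th* and *slc6a3* (0.72). With single clutches left out, the lowest r of these pairs was 0.66, 0.57, 0.55, 0.39 and 0.51, in the same order. The other tyrosine hydroxylase gene, *th2*, had r = 0.12 with *th* and 0.12 with *ddc*. The tryptophan hydroxylase genes *tph1a* and *tph2* had r = 0.66, whereas *dbh* and *th*, which share noradrenergic cells, had r = -0.04. The lowest r was -0.63, for *dbh* and *slc18a2*. The r for *th* and *slc6a4a*, 0.58 in all clutches, lay between -0.51 and 0.79 with single clutches left out. Most of these genes have few reads, and a weak r in such counts is no finding.

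**Figure D5:**
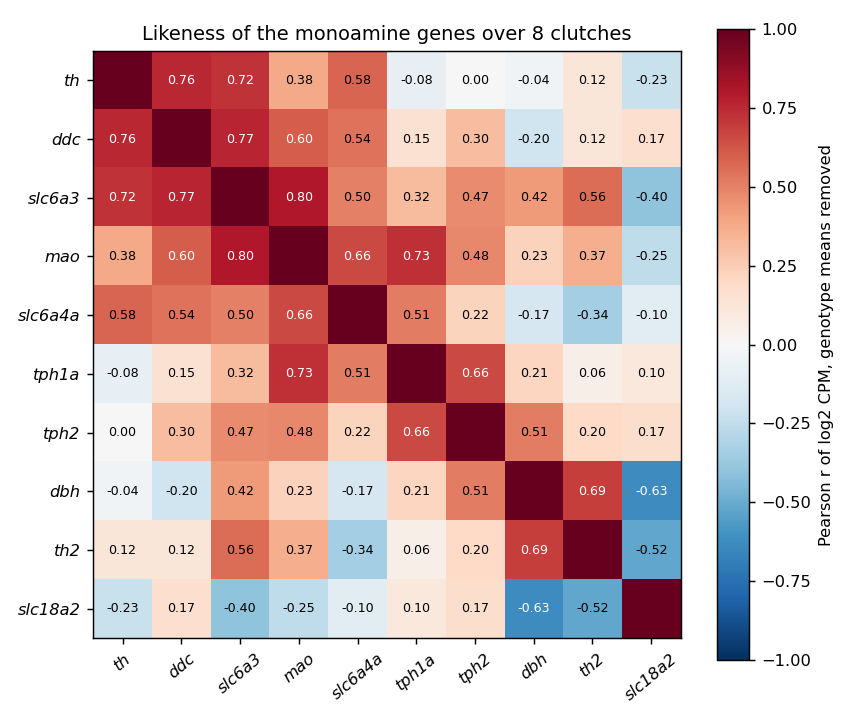
Pearson's r of log2 CPM between each pair of genes over the 8 clutches after removal of the genotype means (colour and printed number). The 5 pairs above 0.7 lie between 0.72 and 0.80, and r for *slc18a2* is at most 0.17 with the others.

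The genes whose variation between clutches was most like that of each of the 9 genes with a mean of at least 1 CPM were sought among 18281 others. For *th* they were si:zfos-2326c3.2 (r = 0.98) and SYNGR3 (r = 0.96), the latter a synaptic vesicle protein gene. For *slc6a4a* they were *opa1* and *gabra5* (r = 0.98 for each), which fell to 0.58 and 0.82 at the lowest when single clutches were left out. For *slc6a3* they were *cacnb4b* and NFE2L1 (r = 0.98 for each), and for *mao* si:dkey-165e24.1 (r = 0.98) and *cracd* (r = 0.97). For *tph2* they were AKR1B1 and DKK3 (r = 0.99 and 0.98), and for *tph1a* *parp3* (r = 0.99) and si:ch1073-170h8.3 (r = 0.97). For *ddc* they were *elovl5* (r = 0.98) and si:dkey-56e3.2 (r = 0.95), for *dbh* *mrs2* (r = 0.98) and *ap5m1* (r = 0.97), and for *slc18a2* *hebp2* (r = 0.97) and *exoc5* (r = 0.96). Each r is the highest of many over 8 clutches and is given as a description.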

How the data were processed

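Strand-specific, paired-end polyA+ RNA-seq of 8 clutches was used, 4 per genotype. AdapterRemoval for trimming, STAR (2.5.3a) for alignment to GRCz11 and featureCounts (1.5.2) for counting were the tools of the authors. The deposited values are raw counts of reads per gene, restricted to reads of mapping quality at least 10 that lay entirely inside exons of the matching strand. The table also gives the authors' gene lengths, which are used for CPM per kilobase.

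Gene symbols came from a name table, from the study's supplementary table and from RefSeq names with the same chromosome and neighbours (GRCz12tu). RefSeq coordinates served only to find the neighbours, and the positions printed are those of the count table. All 10 genes and 167 of 183 symbols looked up were matched.

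Genes exceeding 1 count in 4 or more libraries were tested with edgeR (4.0.16, R 4.3.3) by its quasi-likelihood test after TMM normalisation, with Benjamini-Hochberg adjustment over 23567 genes. A prior count of 2 was added for log2 CPM. Single values and ratios were compared by exact permutation over the 70 arrangements of the clutches, two-sided, with a smallest *p*-value of 0.029. The study's CQN offsets and GC content were not used here. The alternatives were edgeR's likelihood-ratio test, DESeq2 (1.42.0), limma-voom (3.58.1), other normalisations and filters, scaling to pan-neuronal markers, the replicate number as a block or split into 1 and 2 against 3 and 4, and leaving out clutches.

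The 10 genes and the gene lists were chosen with earlier results of these data known. Named with values were the 10 genes, every tested paralogue or partner, up to 5 genes per cofactor, receptor or transcription factor list with the smallest *p*-value under 0.05, the 2 genes most like each of the 10 with a mean of at least 1 CPM, and *fmr1*. Outside this rule, *gch2*, *crx*, *gnat1*, *gnat2*, *rcvrna*, *aanat2*, *her4.1* and *sox2* were named after their values were seen. No per-sample column was left unused (0). Each clutch had its own parents, so that *p*-values measure the spread between families, and all descended from a single stock. Over all genes tested the SE had a median of 0.22 (log2), and counting intervals cover counting error only.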

Additional observations from a re-analysis of the deposited data

Results flagged for a closer look

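The level of *slc6a4a* in mutant clutch S5, at 7.84 CPM, lay far from the other 3 mutant clutches. Its gap to the nearest of them was 0.987 of the range of the 4 mutant values, above the 95% critical value of Dixon's test for 4 samples. It was the single value past that limit among 20 groups examined, 2 genotypes for each of 10 genes, and chance alone passes it in about 1 group in 20. The near tie of the other 3 mutant clutches, closer than counting error gives, raises the ratio of 0.987.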

How the results depend on the processing

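The limits are the few reads of *th2*, *tph1a* and *slc18a2*, the whole-embryo RNA, and 4 clutches per genotype of which A, D and S5 stood apart. No alternative brought any of the 10 genes past an FDR of 0.05, where *th2* was removed by the filter on 1 CPM. Over all genes, 3 passed, against 31 with the likelihood-ratio test, 37 with DESeq2, 0 without A and D, and 1 to 3 with single clutches left out. With the replicate number as a block, 0 genes passed and *fmr1* had an FDR of 0.0658, and 1 of the 10 genes kept an unadjusted *p*-value under 0.05 there. The label numbers did not pair the clutches, since deviations of same-numbered clutches correlated at 0.25, -0.21, -0.01 and 0.18. Without A and D, the FDR of *fmr1* was 0.185. The paired sign-flip tests of the 6 ratios gave *p*-values from 0.25 to 1.0 in 4 pairs. With 4 pairs such a test cannot reach a *p*-value of 0.05, and it rests on the label numbers as pairs. No conclusion is drawn from it.

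Of the 10 genes, 1 reached an unadjusted *p*-value of 0.05, against 2 (*slc6a4a* and *mao*) with DESeq2, RLE or upper quartile normalisation, the filter on 1 CPM, the factor for label numbers 1 and 2 against 3 and 4 or scaling to pan-neuronal markers, 0 without A and D, and 1 to 3 with single clutches left out. Separated genes numbered 0 to 3 with single clutches left out. The share of all genes tested that were higher in the mutant clutches at that *p*-value was 4.22% in the main fit. It was 8.07% without S5 and 3.82% without A and D. For the other settings the share was not computed, so the counts under them have no background to be read against. The share of separated genes was computed for all 8 clutches and without S5 only, and not relative to neuronal markers.

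The log2 fold change of 6 of the 10 genes kept its sign under every alternative run. That of *th2* was -0.0205 with limma-voom, -0.19 without A and D and -0.0831 to 0.57 with single clutches left out. Without A and D, *dbh* was at -0.12 and *tph2* at -0.0323. With single clutches left out, *dbh* ranged from -0.0159 to 0.36, *tph1a* from -0.29 to 0.25, *pah* from -0.21 to 0.0124, *slc18a3b* from -0.50 to 0.0553, *comtb* from -0.058 to 0.10 and *hdc* from -0.60 to 0.0751. The log2 difference of the ratio *dbh* to *th* then ranged from -0.24 to 0.16, of *th2* to *th* from -0.58 to 0.49 and of *slc18a2* to *ddc* from -0.40 to 0.13. Relative to neuronal markers, the log2 difference of *th2* ranged from -0.31 to 0.67, of *tph1a* from -0.22 to 0.24, of *slc6a3* from 0.27 to 0.55, of *slc6a4a* from 0.49 to 0.79 and of *mao* from 0.24 to 0.38. Causes were not tested.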
